A study of Mus musculus with 12 samples.

Results

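A cassette exon is an exon that the cell either splices into a messenger RNA or leaves out together with the introns on both of its sides. The cassette exons described here are 28 to 300 nt long, and 1016 of them were found in junction-spanning reads of mouse neocortex and neocortical cultures. Each was defined by 3 junctions in the table of 8 libraries: a skip junction, and 2 inclusion junctions that start at the donor or end at the acceptor of the skip junction. Each junction had to hold 100 or more reads summed over the 8 libraries. The same search found 1181 events of 3 to 1000 nt, of which 100 were shorter (3 to 27 nt) and 65 longer (over 300 and up to 1000 nt). The 1016 exons used 950 skip junctions and 989 distinct exon positions and fell in genes with 789 symbols, so some of them share a junction or overlap. The rule read the number of reads and no difference between groups.

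The libraries are polyadenylated RNA of wild type NMRI mice, in 6 groups of 2 libraries. P49 and P10 are neocortex tissue of postnatal days 49 and 10. The cultures were dissociated neocortical cells of E16.5 embryos, grown for 14 days. Those of the first DRB experiment received DRB (50 uM, 2 hours), and those named control received no drug. In a second experiment, cultures received DRB (50 uM, 2 hours) with bicuculline (20 uM, 1 hour), or DRB alone. DRB blocks transcript elongation by RNA polymerase II. Bicuculline, an antagonist of GABA-A receptors, increases network activity. The sources used here do not say if each library is a separate animal or culture. The p-values therefore rest on a spread between samples that may be technical.

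Splicing regulators such as the Ptbp, Rbfox, Nova and Mbnl proteins bind near cassette exons and raise or lower their use, and the brain is known for the number of exons it regulates in this way. A cassette exon whose length is a multiple of 3 and that holds no stop codon in the reading frame adds amino acids to the protein. An exon that brings a stop codon into the frame, often called a poison exon, marks the RNA for nonsense-mediated decay, and many splicing factors control their own amount through such exons. Because decay removes these RNAs, the inclusion measured in stable RNA can be below the share that was spliced.

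Inclusion is the mean of the 2 inclusion counts, divided by that mean plus the skip count, and is given as a percent per library. The deposited table lists junctions only between consecutive exons of the authors' own gene model, and the 3 junctions of all 1016 cassette exons lay within 1 such exon pair. A cassette exon that the model itself counts as an exon is therefore outside the search. Of 24 genes with textbook cassette exons, 18 had none among the 1016, and 6 had (Mapt, Nrxn3, Mbnl1, Nova1, Ank2 and Ank3). The exons were matched by gene and need not be the textbook ones. Those of Nova1 and Ank3 are not annotated, and that of Mapt holds a stop codon in the reading frame. Libraries of the first experiment and the tissue held 49559425 to 73900724 junction reads each, and those of the second experiment 62423801 to 69852903. The least covered of the 3 junctions had a median of 205.5 reads over the 8 libraries, and in 491 cassette exons (48.3%) it had under 200. It was an inclusion junction in 867 of the 1016.

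The following exons carry the results below. Sequences are from GENCODE M21 transcripts (GRCm38), 5′ to 3′ on the strand of the gene. The first set holds exons with a stop codon in the reading frame, and each is printed from its first base to that stop codon, which is in capitals. The Arid4b exon (chr13:14191949-14192101, plus strand, 153 nt) is in transcripts annotated only as targets of nonsense-mediated decay, as are the Prpf38b exon (chr3:108905918-108905988, minus strand, 71 nt) and the 79 nt exon of Luc7l3 (chr11:94292394-94292472, minus strand). The Grm7 exon (chr6:111501510-111501601, plus strand, 92 nt) is in a protein-coding transcript and gives this glutamate receptor an alternative end. The 66 nt exon of Luc7l3 (chr11:94292407-94292472) starts at the same base as the 79 nt exon, so the letters printed belong to both. The Mapt exon (chr11:104305313-104305409, plus strand, 97 nt) is only in transcripts of other types. In the Tia1 exon of 119 nt (chr6:86419694-86419812, plus strand) the stop codon already begins at base 3 of the exon.
Arid4b: gtgccccacacTGA
Luc7l3: cgttggtgttgtgagcggcccaTGA
Prpf38b: gtttgggacTGA
Grm7: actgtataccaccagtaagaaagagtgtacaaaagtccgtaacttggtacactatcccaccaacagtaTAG
Mapt: ccctgccgtgtgcccTGA

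The second set holds exons without a stop codon in the frame, printed whole and in lower case, since no part is marked. The Scn1a exon (chr2:66293832-66293895, minus strand, 64 nt) and the Atp2b1 exon (chr10:99019278-99019431, plus strand, 154 nt) shift the frame. The others keep it. They are the exons of Nup54 (chr5:92434222-92434383, minus strand), Nrxn3 (chr12:90199147-90199236, plus strand), Camk2g (chr14:20757666-20757728, minus strand), Myh10 (chr11:68775365-68775427, plus strand), Ptprf (chr4:118218012-118218044, minus strand), Ank2 (chr3:126971003-126971038, minus strand), Ttc7b (chr12:100340497-100340547, minus strand), Mbnl1 (chr3:60596719-60596829, plus strand) and Agrn (chr4:156167777-156167809, minus strand). All are coding exons of protein-coding transcripts except that of Scn1a, which is annotated only in a decay target. The skip junction of the Agrn exon is in no annotated protein-coding transcript.
Scn1a: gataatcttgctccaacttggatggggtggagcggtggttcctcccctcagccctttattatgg
Atp2b1: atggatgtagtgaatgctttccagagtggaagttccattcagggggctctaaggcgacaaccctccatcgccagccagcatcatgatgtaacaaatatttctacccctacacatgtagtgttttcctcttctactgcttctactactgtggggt
Nup54: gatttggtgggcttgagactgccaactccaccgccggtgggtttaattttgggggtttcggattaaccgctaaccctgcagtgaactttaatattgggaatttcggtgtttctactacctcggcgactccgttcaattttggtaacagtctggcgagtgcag
Nrxn3: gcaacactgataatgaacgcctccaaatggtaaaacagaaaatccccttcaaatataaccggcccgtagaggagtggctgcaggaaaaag
Camk2g: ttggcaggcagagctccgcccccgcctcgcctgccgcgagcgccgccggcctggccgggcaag
Myh10: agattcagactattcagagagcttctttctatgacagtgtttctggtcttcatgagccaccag
Ptprf: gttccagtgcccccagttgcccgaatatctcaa
Ank2: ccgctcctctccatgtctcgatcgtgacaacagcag
Ttc7b: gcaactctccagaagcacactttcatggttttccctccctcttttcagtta
Mbnl1: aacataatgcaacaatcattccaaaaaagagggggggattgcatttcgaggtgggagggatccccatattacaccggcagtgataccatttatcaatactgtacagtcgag
Agrn: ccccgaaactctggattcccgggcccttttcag

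The cassette exons had a median length of 91.5 nt (28 to 298). Of the 1016, 490 (48.2%) were a multiple of 3 in length, against 78% of the 100 shorter events and 33.8% of the 65 longer ones. Both ends matched exactly those of an annotated internal exon for 581 (57.2%), and 945 skip junctions were annotated introns. By transcript type, 359 exons were in a protein-coding transcript, 124 only in decay targets, 98 only in other transcripts, and 435 were not annotated. At the edges of the rule, 3 events were 28 nt long (Dnajb2, Shank3 and Stx2) against 16 of 27 nt just outside it, and the next event above the upper limit was one of 301 nt in Nsmf. The least covered junction had exactly 100 reads in 6 cassette exons (Dclre1c, Drosha, Fars2, Papd4, Srrm2 and Suco), and 33 further trios fell short by 5 reads or fewer.

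Read against the frame of the transcript that skips it, 181 exons kept the frame without a stop, 188 brought in an in-frame stop codon and 47 shifted the frame without a stop of their own. A further 264 had no single frame to read and are called outside coding stretches below. Their skip junction lay outside the coding stretch or in no protein-coding transcript, or the frame differed between transcripts. Of these 264, 123 are exons of protein-coding transcripts. Of the unannotated exons with a frame to read, 136 were a multiple of 3 and 200 were not, and their sequence was not used here. A stop codon was present in 67 exons of the in-frame stop class whose length was a multiple of 3, so length alone did not show the class. The classes differed in level. Pooled over libraries, median inclusion was 33.6% for exons that kept the frame, 14.8% for those with an in-frame stop, 22.6% for those that shifted the frame, 35.2% outside coding stretches, and 8.39% and 8.15% for unannotated exons that were and were not a multiple of 3.

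Most cassette exons were used at a low level. Median inclusion over the exons was 19.1% in P49 cortex, 15.7% in P10 cortex, 19.7% in DRB cultures of the first experiment and 13.6% in control cultures. In the second experiment it was 17.9% in DRB-bicuculline cultures and 17.9% in DRB cultures. In control cultures, inclusion was under 10% in 42% of the exons and over 90% in 3.26%. In P49 cortex, 36.7% were under 10% and 6.61% over 90%. The 2 libraries of a group differed by a median of 1.41 to 1.6 points over exons with 40 or more reads in both, and by more than 10 points in 42 to 52 exons per group. For a single exon, the 95% Wilson interval of a library's value had a median half-width of 4.23 points over the 116 named exons and at most 18.9 points. These intervals cover counting error only.

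**Figure D1:**
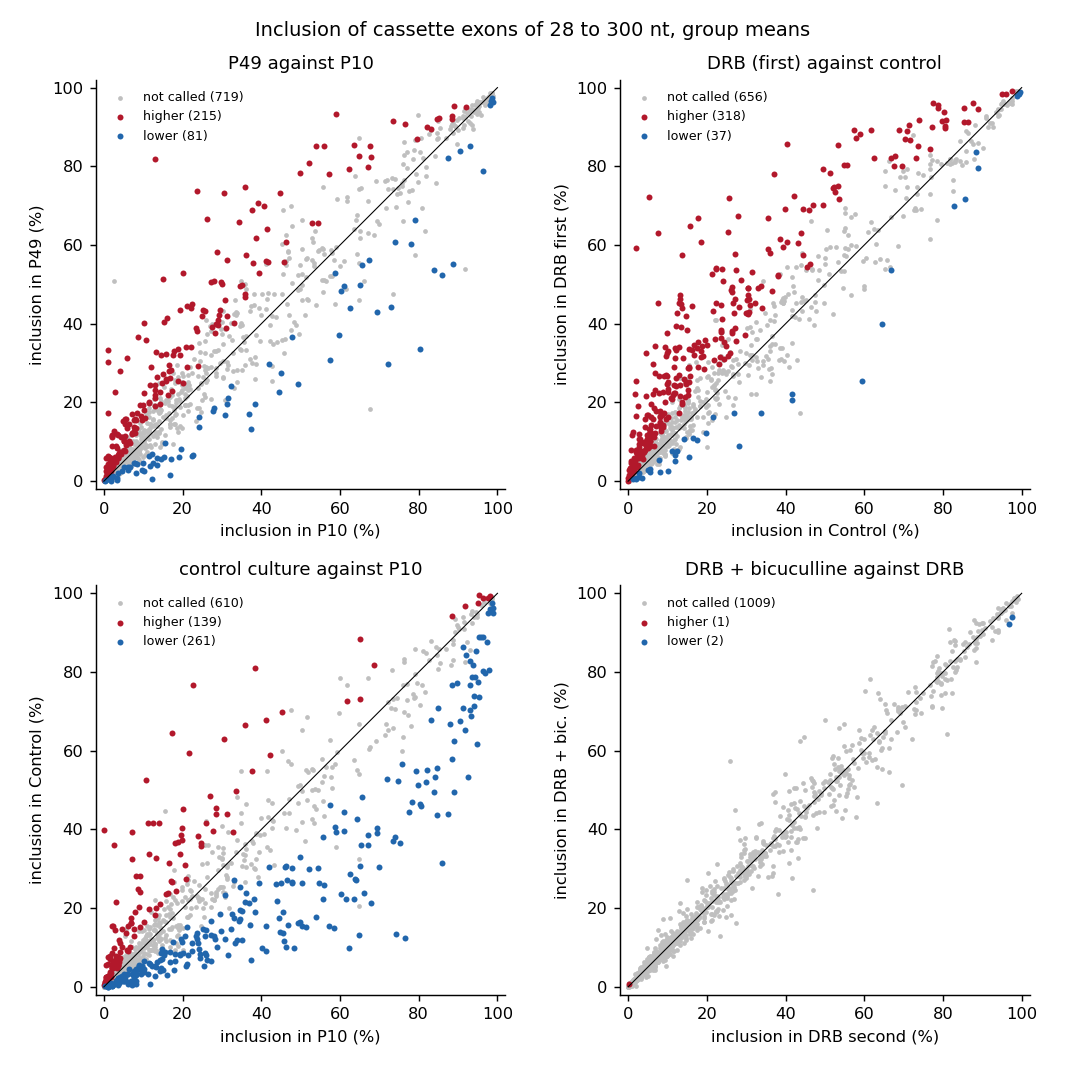
Mean inclusion of each tested cassette exon in 4 comparisons, in percent, with P49, DRB, control culture or DRB with bicuculline on the vertical axis and P10, control, P10 or DRB of the second experiment on the horizontal axis. Red and blue points are exons called higher or lower (edgeR adjusted p under 0.05), grey points were not called, and the line marks equal inclusion. Points above the line dominate with DRB (318 higher, 37 lower), while in control cultures against P10 cortex most called exons lie below it (139 higher, 261 lower).

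Before the comparisons, the cell types of the libraries were compared by the summed junction reads of marker genes, as counts scaled to each library's junction total (CPM). Neuron markers, 8 of 8 detected, summed to 10730 to 10740 CPM in P49, 7262 to 7374 in P10, 4696 to 4851 in DRB cultures of the first experiment and 2699 to 2847 in control cultures. In the second experiment they summed to 4220 to 4397 with DRB and bicuculline and 4313 to 4489 with DRB. Myelin markers summed to 2830 to 2887 CPM in P49 and 993 to 1149 in P10. Markers of progenitors and immature neurons, 5 of 6 detected, summed to 152.1 to 159.9 CPM in P49 and 1435 to 1630 in P10, and to 3936 to 3984 with DRB in the first experiment and 5311 to 5630 in control cultures. Vim made up most of the sum in control cultures, and was at 1619 and 1663 CPM with DRB. Without Vim the sum was 2317 to 2320 CPM with DRB and 1700 to 1726 in control cultures. Endothelial and mural markers, 6 of 7 detected, summed to 270.0 to 278.5 CPM with DRB in the first experiment, 826.5 to 970.5 in control cultures and 425.9 to 448.5 in P10. Acta2 carried the high sum of control cultures, and without it the sums were 147.2 to 157.6 CPM with DRB, 297.2 to 312.3 in control cultures and 405.8 to 432.7 in P10. Astrocyte markers summed to between 1465 and 2243 CPM in all 12 libraries, but single markers moved in opposed directions. In both control libraries against both P10 libraries, 5 of the 7 were higher, and Aldoc and Slc1a2 lower. Slc1a3 was at 1082 and 1081 CPM in control cultures and 322.8 and 323.5 CPM in P10. Microglia markers summed to 282.4 to 300.9 CPM in tissue and 34.8 to 89.6 CPM in cultures, and 4 of the 8 (Csf1r, Ctss, P2ry12 and Tmem119) were higher in every tissue library than in every culture library, while Aif1, C1qa, C1qb and C1qc were not. Markers of oligodendrocyte precursors, 4 of 4 detected, summed to 70.8 to 150.6 CPM. Cldn5 and Sox11 had no junction reads in any library, and Tmem119, a microglia marker, none in 7 of the 8 culture libraries. In bulk RNA, fewer cells of a type and less RNA per cell cannot be told apart.

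With age, more cassette exons of the cortex rose than fell. Of 1015 exons tested, 215 were higher in P49 and 81 lower (edgeR quasi-likelihood test with Benjamini-Hochberg adjustment over all events of 3 to 1000 nt, adjusted p under 0.05). The share called over all 1180 events tested was 30.1%, with 21.8% higher and 8.31% lower. Most of these events are the 1015 exons themselves, of which 29.2% were called, so the 2 shares had to be close. Of the 100 shorter events 35% were called, and of the 65 longer ones 36.9%. Inclusion differed by 10 points or more in 100 of the exons called higher and 38 of those called lower. The median difference over all exons was 0.974 points and the median log2 odds ratio 0.26. The odds are inclusion reads over skip reads, and a log2 odds ratio above 0 means more inclusion in the group named first. With DESeq2 and its own size factors, which centre the inclusion columns of all events, the median was -0.06 and the calls were 68 higher and 77 lower. All 10 myelin markers were higher in both P49 libraries than in both P10 libraries, as were 6 of the 8 neuron markers, while Stmn2 and Tubb3 were lower in P49, as were the 5 detected progenitor and immature neuron markers. Their part in these results was not tested. In 493 of the 1015 exons each junction held 100 reads in the other 4 libraries alone. The others reached the read minimum only with reads of the libraries compared, as did 20 of the 46 called exons named for this comparison. Among those 20 are the exons of Celsr3, Grm7, Ttc7b, Clk4, Scn1a, Myh10, Dopey2, Macf1, Add1 and Sptan1.

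Exons of Ptprk, Celsr3 and Grm7 were among the largest rises with age. The 42 nt exon of Ptprk, a receptor tyrosine phosphatase that binds cells together, was included at 73.7% and 73.8% in P49 and at 27.4% and 20.1% in P10 (log2 odds ratio 3.18 ± 0.32 SE, edgeR adjusted p 7.2e-06). A 38 nt exon of Celsr3, a cadherin that guides axons, stood at 66.6% and 66.6% in P49, against 29.4% and 23.2% in P10. Neither exon is annotated. The Grm7 exon shown above was at 38.2% and 42.3% in P49, against 10.1% and 10.5% in P10 (log2 odds ratio 2.54 ± 0.21 SE, edgeR adjusted p 1.2e-06). Grm7 encodes a metabotropic glutamate receptor of presynaptic endings. In each of the 3 genes, both P49 libraries lay above both P10 libraries. The exons were named for a called difference, which makes such separation likely, so it is no further support.

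Exons of Myh10, Dopey2, Ttc7b, Atp11b and Ank2 rose as well. The Myh10 exon, which encodes an insert in the head of non-muscle myosin heavy chain IIB, was included at 18.7% and 16% in P49, against 0.98% and 0.974% in P10 (log2 odds ratio 4.39 ± 0.32 SE, edgeR adjusted p 4.8e-07). A 36 nt exon of Dopey2, a protein of endosomal traffic, had 33.5% and 33% in P49 and 0.674% and 1.33% in P10. Of its 537 inclusion reads in the 8 libraries, 512 came from P49, and for the Myh10 exon 503 of 571. Both exons passed the read minimum only through the group where they are high. The 51 nt exon of Ttc7b, a subunit of the plasma membrane phosphatidylinositol 4-kinase complex, stood at 53.5% and 49% in P49 and 16.2% and 13.9% in P10. Atp11b, a phospholipid flippase, had an 86 nt exon at 70.9% and 67.2% in P49 and 39.5% and 35.7% in P10. The Ank2 exon of 36 nt was at 44.3% and 42% in P49, against 28.8% and 22.7% in P10 (log2 odds ratio 1.14 ± 0.17 SE, edgeR adjusted p 0.00019). Ank2 encodes ankyrin-B, which ties membrane proteins to the spectrin skeleton. None of these groups of libraries overlapped, which the choice of called exons makes likely.

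C2cd5, a C2 domain protein of vesicle traffic, held 3 cassette exons that behaved differently. Its 33 nt exon, outside the naming rule and picked out after its values were seen, had the largest rise in points of all exons called higher, with 83.5% and 80.1% in P49, against 17.4% and 8.56% in P10 (log2 odds ratio 4.92, edgeR adjusted p 2.4e-07). Its 66 nt exon was at 59.3% and 57% in P49, against 27.7% and 29.7% in P10 (edgeR adjusted p 2.9e-05). Its 102 nt exon was at 73.8% and 81.4% in P49 and 83.5% and 80.3% in P10, and was not called (edgeR adjusted p 0.3). In cultures of all 4 groups the 33 nt exon stayed between 8.3% and 16.2%.

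Of the exons named for their fall with age, that of Agrn fell furthest. It encodes the longer of the z inserts, which neurons add to agrin and which let it cluster acetylcholine receptors. It was included at 52.8% and 57.5% in P49, against 85.6% and 91.6% in P10 (log2 odds ratio -2.67 ± 0.22 SE, edgeR adjusted p 1.2e-06). A 267 nt exon of Afap1, an actin filament-associated protein, was at 55.4% and 51.9% in P49 and at 84.3% and 83.7% in P10. The Scn1a exon of 64 nt, a poison exon of a voltage-gated sodium channel, fell to 6.81% and 6.6% in P49, against 20.7% and 24.5% in P10 (log2 odds ratio -2.0 ± 0.33 SE, edgeR adjusted p 0.00051). A 28 nt unannotated exon of the postsynaptic scaffold gene Shank3 was at 6.03% and 6.2% in P49, against 19.8% and 18.4% in P10. A 129 nt exon of Cacna1e, the pore of R-type calcium channels, was at 5.84% and 6.38% in P49, against 13.7% and 16.7% in P10. In these 5 exons each P49 library lay below each P10 library, which the choice of called exons makes likely.

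**Figure D2:**
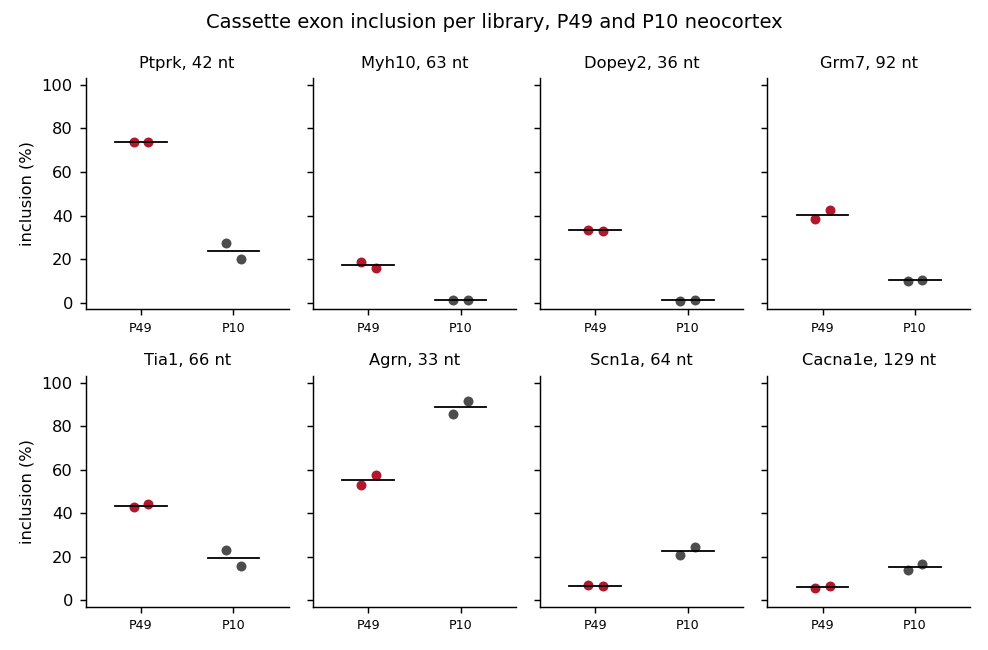
Inclusion in percent of 8 cassette exons in each of 2 libraries of P49 (red) and P10 (grey) neocortex, with a bar at the mean. The exons of Ptprk, Myh10, Dopey2, Grm7 and Tia1 lie higher at P49 than at P10 and those of Agrn, Scn1a and Cacna1e lower, with no overlap between the ages. They were picked from the called exons, which makes such separation likely.

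The list of splicing regulators held 83 genes, of which 22 had 38 of the cassette exons. Of these, 14 were called higher in P49, 3 lower and 21 not called, with a median difference of 1.38 points against 0.974 over all 1015. Over all 1015 exons 21.2% were called higher. The 66 nt exon of Tia1, an RNA-binding protein that aids the use of weak donors, carries an in-frame stop and was at 42.6% and 44.3% in P49, against 23.1% and 15.8% in P10. A 62 nt exon of Rbm25 was at 17.4% and 21.2% in P49 and at 9.42% and 8.91% in P10. In-frame stop exons of Hnrnpll (83 nt) and Hnrnpl (70 nt), a pair of related hnRNP proteins, were called higher in P49 by 8.61 and 3.83 points, but not with DESeq2's own size factors (adjusted p 0.16 and 0.34). The 67 nt exon of Clk4, a kinase of SR proteins, was at 66.1% and 73.7% in P49, against 37.9% and 43.8% in P10. That call was lost when the lower of the 2 inclusion junctions was counted (edgeR adjusted p 0.48). The Mbnl1 exon was at 34.1% and 34.3% in P49 and at 21.2% and 23.3% in P10. It was called (edgeR adjusted p 0.01), but not without the first P10 library (adjusted p 0.07) or with DESeq2 (adjusted p 0.33).

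Over all 1015 exons, 21.2% were called higher in P49 and 7.98% lower. Of 21 exons in cytoskeletal genes, 9 were higher in P49 and 4 lower. These included low-level exons of Macf1, Add1 and Sptan1, which stayed under 8% in both ages and rose by 5.14 to 5.41 points. The one in Sptan1 was not called with limma on the logit (adjusted p 0.055). P49 gave 236 of the 376 inclusion reads of the Macf1 exon, 182 of 291 for Add1 and 343 of 422 for Sptan1. These exons passed the read minimum only through P49, where they are high. Of 13 exons in adhesion and guidance genes, 4 were higher and 3 lower, and of 24 in genes of synapses and channels, 3 were higher and 3 lower. Of 10 in genes of endocytosis and traffic, 5 were higher and none lower, and the 3 exons of matrix, glia and receptor genes gave no call. The Nrxn3 exon, known as the insert at splice site 4 that changes the partners of this presynaptic adhesion protein, was at 62.9% and 60.8% in P49 and 64.4% and 65.9% in P10, and was not called (edgeR adjusted p 0.27). The exons of Ank3, Mapt and Nova1 were not called either (edgeR adjusted p 0.072, 0.17 and 0.31). The Camk2g linker exon was at 55.5% and 55.9% in P49 against 47.7% and 43.9% in P10, a difference of 9.9 points. It was called (edgeR adjusted p 0.008), but not with DESeq2 (log2 odds ratio 0.27, adjusted p 0.55; 0.12 when scaled by library totals), with limma (adjusted p 0.095) or without the second P10 library (edgeR adjusted p 0.057).

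The second comparison asked what 2 hours of DRB did to cassette exon use in cultures. Of 1011 exons tested, 318 were higher with DRB and 37 lower than in control cultures (edgeR adjusted p under 0.05). Over all 1175 events tested, 36.6% were called, 32.8% higher and 3.83% lower. Most of these events are the 1011 exons themselves, of which 35.1% were called. Of the 100 shorter events 49% were called, and of the 64 longer ones 40.6%. The difference was 10 points or more in 188 of the exons called higher and in 9 of those called lower. The median log2 odds ratio was 0.38 and the median difference 1.88 points. With DESeq2's own size factors the median was -0.28 and the calls were 86 higher and 85 lower. That scaling removes, by its construction, a shift shared by events, and 732 of the 1011 exons had a difference above 0. With DESeq2 scaled by the libraries' junction totals, a setting added after the data were seen, 232 were higher and 18 lower. All 8 neuron markers were higher in both DRB libraries than in both control libraries. Of 7 endothelial and mural markers, 5 were lower with DRB and Pecam1 higher. Of the progenitor and immature neuron markers, Vim, Nes and Dcx were lower with DRB, and Dpysl3 and Tubb2b higher. Of 7 astrocyte markers, 5 were lower with DRB and Slc1a2 higher, and all 4 oligodendrocyte precursor markers were lower. Their part in the result was not tested. Of the 48 called exons named for this comparison, 21 reached the read minimum only with reads of the libraries compared. Among them are the exons of Arid4b, Arid4a, Leng8, Prpf38b, Hnrnpd, U2af2, Erbb4, Mapt and Btaf1. So are the 119 nt exon of Tia1, the 79 nt exon of Luc7l3 and the exons of Fam135a, Kmt2c, Synrg and Myo5a. Other columns beside the junction counts of these DRB libraries carry TTX in their names, which the labels do not mention.

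The largest rise with DRB was that of an Arid4b exon. The Arid4b exon was at 73.9% and 70.6% with DRB, against 4.26% and 6.45% in control cultures (log2 odds ratio 5.51 ± 0.31 SE, edgeR adjusted p 1.5e-07). Arid4b encodes a chromatin protein of the Sin3 histone deacetylase complex. Its paralog Arid4a had an unannotated 130 nt exon at 67.9% and 58.4% with DRB and 8.42% and 6.99% in control cultures (log2 odds ratio 4.32 ± 0.3 SE, edgeR adjusted p 4.8e-07). The 79 nt exon of Luc7l3, which encodes a protein of the U1 snRNP, was at 70.6% and 63.1% with DRB, against 15.5% and 20% in control cultures. The 66 nt form with the same start was at 74.7% and 69.4%, against 22.9% and 28.3%. The 119 nt exon of Tia1 was at 45.1% and 45.2% with DRB, against 7.34% and 7.72% in control cultures (log2 odds ratio 3.30 ± 0.23 SE, edgeR adjusted p 5.2e-07). The Prpf38b exon, in a gene of a pre-mRNA splicing factor, was at 48.7% and 43.9% with DRB and 13.9% and 12.3% in control cultures. For Arid4b, 365 of the 484 inclusion reads in the 8 libraries came from DRB cultures. For Arid4a it was 204 of 280, and for the 119 nt exon of Tia1 588 of 738. These exons passed the read minimum only through the group where they are high.

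DRB cultures of the second experiment are a separate group that was compared with no untreated cultures of its own, so their values are set beside the others without a test. There the Arid4b exon was at 66.3% and 62.5%, the Arid4a exon at 43.1% and 41.3%, the 79 nt Luc7l3 exon at 55.9% and 62.6%, the Tia1 exon at 38.5% and 44.1%, and the Prpf38b exon at 34.4% and 35.5%. All of these lay above both control libraries, which belong to the first experiment. Over all 1011 exons tested, 50.35% had both DRB libraries of the second experiment above both control libraries, and 16.62% had both below. In untreated tissue, the Arid4b exon was at 2.42% to 4.42% and the Arid4a exon at 0.797% to 1.19% over the 4 libraries. An unannotated 63 nt exon of Leng8 was less even. It had 67.6% and 51% with DRB in the first experiment and 25.4% and 50.8% in the second, against 2.7% and 1.53% in control cultures. Of its 380 inclusion reads in the 8 libraries, 363 came from DRB cultures. It too passed the read minimum only through the group where it is high.

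**Figure D3:**
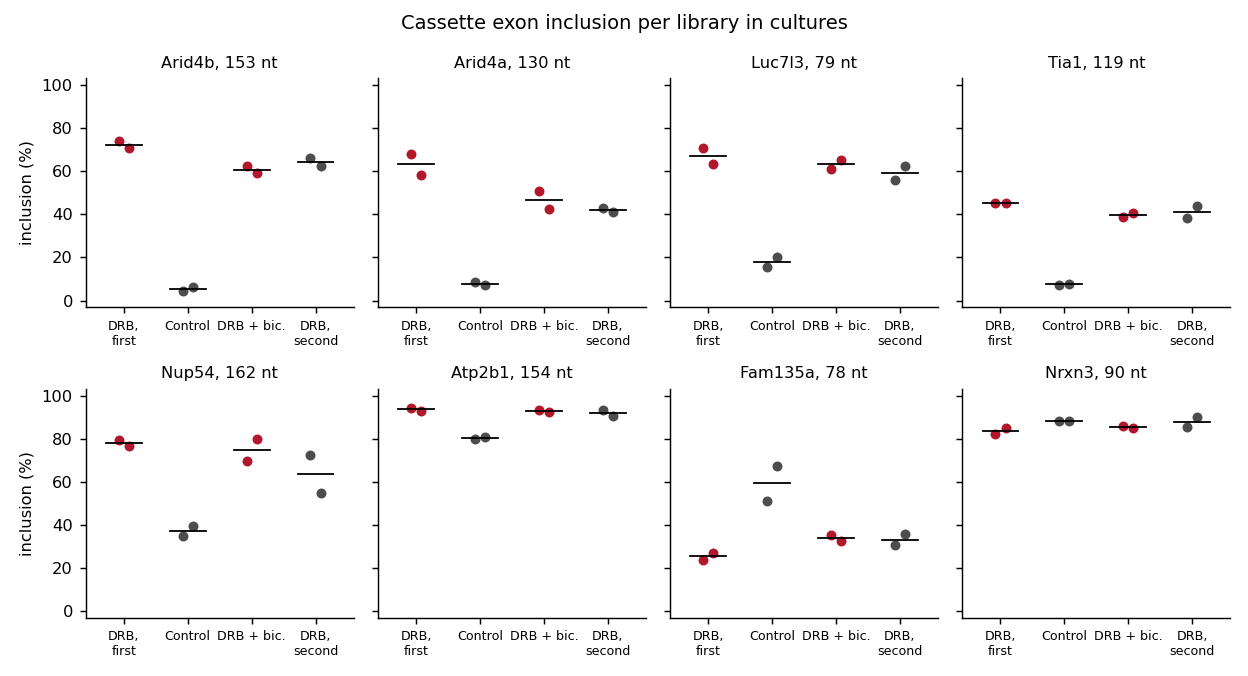
Inclusion in percent of 8 cassette exons in each of 2 libraries of 4 culture groups, with a bar at the mean. Red points are DRB cultures of the first experiment and DRB-bicuculline cultures, and grey points are control cultures and DRB cultures of the second experiment. The control group belongs to the first experiment. The exons of Arid4b, Arid4a, Luc7l3, Tia1, Nup54 and Atp2b1 lie higher in every group given DRB than in control cultures, and that of Fam135a lower, while the Nrxn3 exon stays between 82.2% and 90.1% throughout.

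Of 181 exons that keep the frame, 69 (38.1%) were called higher with DRB, against 31.5% of all 1011 exons. The Nup54 exon, in a gene of the central channel of the nuclear pore, was at 79.6% and 76.6% with DRB, against 34.7% and 39.5% in control cultures (log2 odds ratio 2.57 ± 0.3 SE, edgeR adjusted p 2.1e-05). The Ptprf exon, in a receptor tyrosine phosphatase of synapses, was at 62.2% and 63.9% with DRB, against 43.5% and 44.6% in control cultures. This call was lost with DESeq2's own size factors (adjusted p 0.18), as was that of a 48 nt exon of Erbb4 (adjusted p 0.51). The Erbb4 exon, which separates the CYT-1 from the CYT-2 form of this neuregulin receptor, was at 34.9% and 41.8% with DRB and 23.3% and 23.7% in control cultures. Flna, which encodes a filamin that cross-links actin, had an unannotated 57 nt exon, whose frame was not read, at 47% and 43.1% with DRB, against 11.4% and 15.3% in control cultures.

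Atp2b1, a calcium pump of the plasma membrane, had 4 of the cassette exons at 1 place. They share the acceptor and end at 4 donors, giving 87, 114, 152 and 154 nt, so the shorter ones are the first bases of the 154 nt sequence shown above, and they share the skip reads. They also share 1 of their 2 inclusion junctions, whose reads count in the inclusion of every form. The 4 values are therefore not shares of 1 whole, and they cannot move independently. The 154 nt form was included at 94.5% and 92.9% with DRB, against 80% and 80.7% in control cultures (log2 odds ratio 1.85 ± 0.18 SE, edgeR adjusted p 6.1e-06). The 87 nt form was at 92.8% and 90.5% with DRB, against 73.3% and 74.4%. The other forms moved alike, by 19.0 and 20.2 points.

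Over all 1011 exons, 31.5% were called higher with DRB and 3.66% lower. Among the lists, 17 of the 38 exons in splicing regulators were called higher and none lower. The 17 include the Luc7l3 exons of 79 and 66 nt, which overlap and share a skip junction. The median log2 odds ratio of the 38 was 0.60, against 0.38 over all exons. A 107 nt exon of Hnrnpd, which encodes an RNA-binding protein that turns over mRNA, was at 12.4% and 11.6% with DRB and 2.94% and 2.76% in control cultures (log2 odds ratio 2.20 ± 0.17 SE, edgeR adjusted p 9.5e-07). A 120 nt exon of U2af2, which recognises the polypyrimidine tract before an acceptor, was at 7.81% and 9.38% with DRB and 2.73% and 2.63% in control cultures. Of 21 exons in cytoskeletal genes, 10 were higher and 1 lower. Mark4, a kinase of microtubule-associated proteins, had an unannotated 80 nt exon at 95.5% and 95.5% with DRB, against 78.1% and 79.3% in control cultures. The Mapt exon, in the gene of tau, stayed rare, at 1.92% and 1.91% with DRB and 0.774% and 0.639% in control cultures. It was called (edgeR adjusted p 0.00038), but not with DESeq2's own size factors (adjusted p 0.16). Adhesion genes gave 3 higher and 3 lower of 13, and synapse and channel genes 6 higher and 1 lower of 24. Those 6 include all 4 Atp2b1 forms above, which overlap and share their skip reads. Endocytosis genes gave 3 higher and 1 lower of 10, and matrix, glia and receptor genes 1 higher of 3. The Mbnl1 exon was at 35.3% and 35.5% with DRB and 23.4% and 25.1% in control cultures. Its call (edgeR adjusted p 0.018) was lost when any of the 4 libraries was left out (adjusted p 0.054 to 0.09). The exons of Ank3, Ank2 and Nova1 were not called (edgeR adjusted p 0.45, 0.31 and 0.17).

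The 37 falls with DRB held 16 of the 181 exons that kept the frame, 5 of the 188 with an in-frame stop, 1 of the 47 that shifted the frame and 5 of the 259 outside coding stretches. They also held 5 of the 136 unannotated exons that were a multiple of 3 and 5 of the 200 that were not, whose sequence was not read. The 78 nt exon of Fam135a was at 23.8% and 27.2% with DRB, against 51.2% and 67.6% in control cultures (log2 odds ratio -2.04 ± 0.34 SE, edgeR adjusted p 0.00035). The unannotated 48 nt exon of Kmt2c, a histone H3 methyltransferase, was at 36.5% and 43.4% with DRB, against 66.9% and 62.1% in control cultures (log2 odds ratio -1.40 ± 0.34 SE, edgeR adjusted p 0.0054). Control cultures gave 223 of its 417 inclusion reads, and it passed the read minimum only through them, where it is high. A 54 nt exon of Wdfy3, an adaptor of selective autophagy, was at 20.4% and 23.8% with DRB, against 42.8% and 40.5%. A 234 nt exon of Synrg, a partner of the clathrin adaptor AP-1, was at 7.22% and 10.9% with DRB, against 28.2% and 28.2%. An 81 nt exon of the motor Myo5a was at 5.74% and 6.32% with DRB and 15.7% and 15.1% in control cultures (edgeR adjusted p 2.2e-05). The Nrxn3 exon was at 82.2% and 85% with DRB and 88.3% and 88.4% in control cultures. Its call (edgeR adjusted p 0.035) was lost without the first DRB library (adjusted p 0.21), without either control library (0.12 and 0.13) and with limma (0.063).

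**Figure D4:**
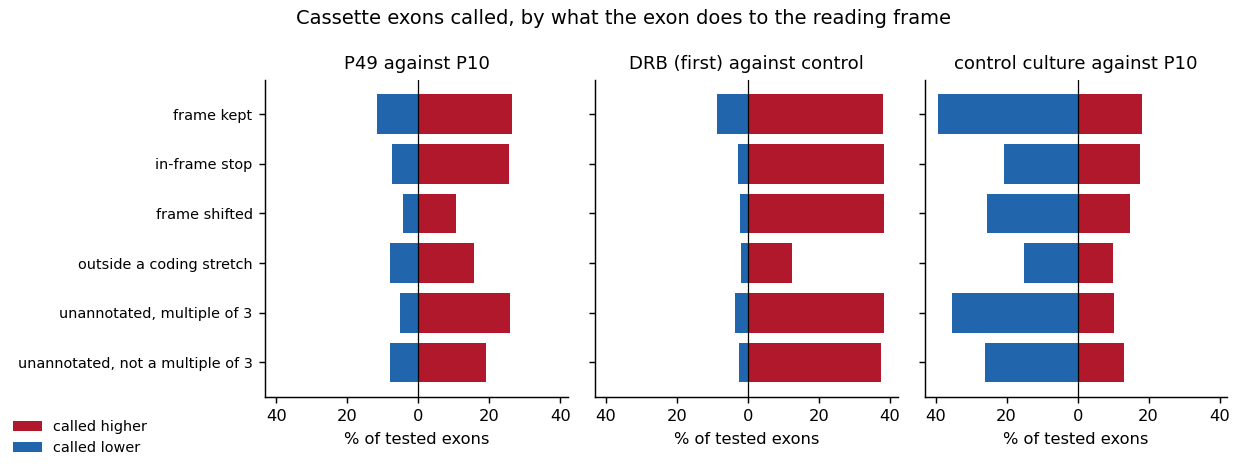
Share of tested cassette exons called higher (red, to the right) or lower (blue, to the left), in percent of the exons of each reading frame class, for 3 comparisons (edgeR adjusted p under 0.05). With DRB, 38.3% of exons with an in-frame stop and 38.1% of those that keep the frame were called higher. The share was 12.4% in the class outside coding stretches. That class also holds exons whose skip junction is in no protein-coding transcript or whose frame differs between transcripts. In control cultures against P10, 39.2% of frame-keeping exons were lower.

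By reading frame class, the shares called higher with DRB were close to each other except in 1 class. They were 38.1% of 181 frame-keeping exons, 38.3% of 188 with an in-frame stop, 38.3% of 47 that shift the frame, and 38.2% and 37.5% of unannotated exons that are and are not a multiple of 3. Of 259 exons outside coding stretches, a class that also holds exons with no single frame to read, 12.4% were higher. With age the shares higher in P49 were 26.5% for frame-keeping exons, 25.5% for in-frame stops, 10.6% for frame shifts and 15.6% outside coding stretches. These shares are descriptions and were not tested against each other. Of the exons called higher in P49, 82 were also called higher with DRB, which is 38.1% of the 215 and 25.8% of the 318. Over all 1010 exons tested in both, 31.5% were higher with DRB. These comparisons have no library in common.

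In the main fits, control cultures differed from P10 cortex in more exons than any other pair tested. Of 1010 exons, 139 were higher in control cultures and 261 lower (edgeR adjusted p under 0.05), with 53 and 167 of them differing by 10 points or more. With a fit of only the 2 groups compared, 398 exons were called here and 411 for DRB against control cultures, which reverses the order. Over all 1174 events, 42.8% were called, 13.1% higher and 29.6% lower. The 28 to 300 nt exons were split 13.8% higher and 25.8% lower, and the 100 shorter events 6 higher and 61 lower. The median log2 odds ratio of the 28 to 300 nt exons was -0.15. With DESeq2's own size factors it was 0.20, and the calls were 159 higher and 159 lower. Tissue and culture differ at once in age, handling and cell types, and these cannot be told apart. Of the 6 progenitor and immature neuron markers, 4 were higher in both control libraries than in both P10 libraries, with Vim at 3929 and 3586 CPM in control cultures and 84.6 and 90.2 CPM in P10. Of the 8 neuron markers, 7 were lower in control cultures and Gad1 higher, and all 10 myelin markers were lower. Their part in the result was not tested. This comparison shares the P10 libraries with the comparison of ages and the control libraries with that of DRB. Of the 45 called exons named for it, 14 reached the read minimum only with reads of the libraries compared. Those of Fbn1 and Kmt2c are among them. Of the 324 inclusion reads of the Fbn1 exon, 128 came from P10, and of the 417 of the Kmt2c exon 223 came from control cultures. Both passed the read minimum only through the group of this comparison where they are high.

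The exons of Flna and Fbn1 were among the falls in control cultures. The Flna exon was at 11.4% and 15.3% in control cultures, against 77.3% and 71.3% in P10 (log2 odds ratio -4.24 ± 0.27 SE, edgeR adjusted p 5.2e-08). In P49 the Flna exon was at 59.6% and 79.9%. An unannotated 61 nt exon of Fbn1, the extracellular matrix protein fibrillin, was at 12% and 14.5% in control cultures and 57.8% and 71.9% in P10. Of 7 endothelial and mural markers, Acta2 and Kdr were higher in control cultures and Flt1, Pdgfrb, Pecam1 and Slco1c1 lower, with Acta2 at 658.3 and 529.3 CPM in control cultures and 20.1 and 15.9 CPM in P10. Their part in the result was not tested. Neither exon had values that overlapped between control cultures and P10, which the choice of called exons makes likely.

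Of 181 exons that keep the frame, 71 (39.2%) were called lower in control cultures and 33 (18.2%) higher. Over all 1010 exons, 25.8% were lower and 13.8% higher. The Ptprf exon was at 43.5% and 44.6% in control cultures, against 86.8% and 88.3% in P10 (log2 odds ratio -3.15 ± 0.13 SE, edgeR adjusted p 2.3e-09). The Camk2g exon, in the linker of this calcium-dependent kinase, was at 11% and 12.2% in control cultures, against 47.7% and 43.9% in P10 (log2 odds ratio -2.68 ± 0.17 SE, edgeR adjusted p 4.7e-08). A 93 nt exon of Ppfibp1, a liprin, was at 14.5% and 15.2% in control cultures and 55.4% and 61.7% in P10. A 33 nt exon of Acbd5, a peroxisome tether, was at 28.3% and 32.5% in control cultures and 70.1% and 69.6% in P10. An 87 nt exon of the kinase Mink1 was at 37.7% and 38.7% in control cultures and 71.4% and 76.6% in P10. The Ank2 exon was at 8.5% and 8.86% in control cultures, against 28.8% and 22.7% in P10. Of 21 exons in cytoskeletal genes, 2 were higher and 14 lower.

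**Figure D5:**
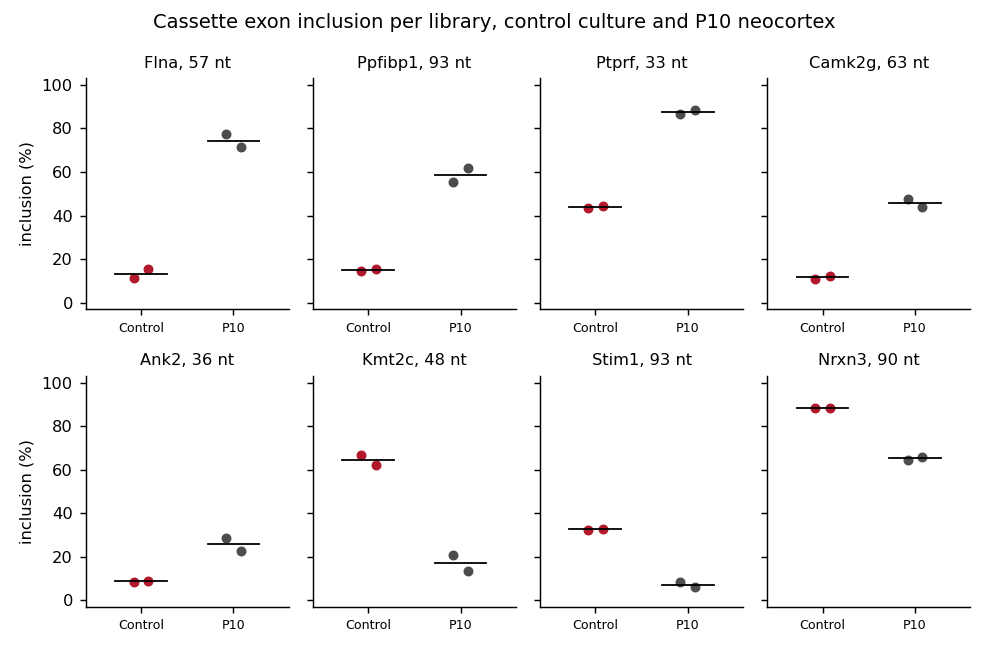
Inclusion in percent of 8 cassette exons in each of 2 libraries of control cultures (red) and P10 neocortex (grey), with a bar at the mean. The exons of Flna, Ppfibp1, Ptprf, Camk2g and Ank2 lie lower in control cultures, and those of Kmt2c, Stim1 and Nrxn3 higher. The Kmt2c exon passed the read minimum only through control cultures.

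Other exons were used more in control cultures than in P10 cortex. A 64 nt exon of Xpo1, a nuclear export receptor, was at 51.4% and 53.9% in control cultures, against 10.3% and 11.1% in P10 (log2 odds ratio 3.21 ± 0.18 SE, edgeR adjusted p 2e-08). The Kmt2c exon was at 66.9% and 62.1% in control cultures and 21% and 13.6% in P10. A 93 nt exon of Stim1, the calcium sensor of the endoplasmic reticulum, was at 32.5% and 32.7% in control cultures and 8.18% and 6.04% in P10. The Nrxn3 exon was at 88.3% and 88.4% in control cultures, against 64.4% and 65.9% in P10 (log2 odds ratio 2.02 ± 0.17 SE, edgeR adjusted p 6.1e-07). A 120 nt exon of the synaptic adhesion gene Cadm2 was at 14.3% and 14.3% in control cultures and 3.11% and 2.69% in P10, and the 81 nt exon of Myo5a at 15.7% and 15.1% in control cultures and 1.85% and 2.62% in P10. An exon of 92 nt in A230045G11Rik was at 40.4% and 39.4% in control cultures and had no inclusion read among 605 reads of P10, which allows up to 0.496%. It was at 49.1% and 44.4% in DRB cultures of the first experiment, at 0.333% and 0.463% in P49, and at 0% in all 4 culture libraries of the second experiment. Over the 8 libraries it passed the read minimum through the cultures of the first experiment, where it is high.

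Exons in splicing regulators were split in control cultures against P10, with 6 higher and 6 lower of 38. Over all 1010 exons, 13.8% were higher and 25.8% lower. The falls included 3 exons of Srrm2, a protein of the spliceosome's active core. Those of 95 and 123 nt share a start, a skip junction and 1 inclusion junction. They were at 11.6% and 10.8%, and at 8.84% and 8.6%, in control cultures, against 23.4% and 24.6%, and 19.7% and 20.3%, in P10. The 203 nt exon was at 6.36% and 5.52% in control cultures and 21.9% and 20.4% in P10, a call that was lost when the lower inclusion junction was counted (edgeR adjusted p 0.31). Adhesion genes gave 4 higher and 3 lower of 13, and synapse and channel genes 7 higher and 6 lower of 24. Those 6 include the Atp2b1 forms of 114, 152 and 154 nt, which overlap and share their skip reads. Endocytosis genes gave none higher and 4 lower of 10, and the 3 exons of matrix, glia and receptor genes gave no call. Nova1, Mapt, Mbnl1 and Ank3 exons were not called here either (edgeR adjusted p 0.89, 0.75, 0.64 and 0.17).

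Few cassette exons were called when bicuculline was added to DRB. Of 1012 exons tested, 1 was higher with DRB and bicuculline than with DRB alone and 2 were lower, and none of the 3 moved by 10 points. Over all 1176 events, 0.255% were called, 0.085% higher and 0.17% lower. At an unadjusted p under 0.05, 34 exons were higher and 21 lower, and DESeq2 and limma called 0. The calls were 2 overlapping exons of Odf2, a protein of centrioles and sperm tails, and a rare exon of Atp1b1. The 71 nt exon of Odf2 was at 93.9% and 94.1% with DRB and bicuculline, against 98.2% and 97% with DRB (log2 odds ratio -1.39 ± 0.27 SE, edgeR adjusted p 8.8e-05). The 69 nt exon shares its skip reads and 1 inclusion junction and differs by its acceptor. The Atp1b1 exon of 159 nt, in a gene of a sodium pump subunit, was at 0.558% and 0.696% with DRB and bicuculline and at 0.253% and 0.431% with DRB. Each of the 3 calls was lost without either DRB library (edgeR adjusted p 0.55 to 0.92), and that of Atp1b1 also without the second DRB-bicuculline library (adjusted p 0.056).

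The exons with the largest rises with DRB were not called with bicuculline. The Arid4b exon was at 62.5% and 59% with bicuculline and 66.3% and 62.5% without, and the Tia1 exon of 119 nt at 39% and 40.5% with it and 38.5% and 44.1% without. Others differed more between the means or between libraries. The Leng8 exon was at 22.4% and 24.7% with bicuculline and 25.4% and 50.8% without, the Nup54 exon at 69.9% and 79.7% with it and 72.3% and 54.8% without, and a 192 nt exon of Btaf1 at 53.7% and 42.7% with it and 60% and 56.2% without. The libraries of the 2 groups overlapped for Nup54 but not for Leng8 or Btaf1. The Nrxn3 exon was at 86% and 85.1% with bicuculline and 85.5% and 90.1% without, a log2 odds ratio of -0.25 ± 0.19 (SE). None of the exons found in the textbook genes was called (edgeR adjusted p 0.91 or more). In simulated counts for the 1176 events of this comparison (dispersion 0.01), the test recovered 47% of 100 events whose odds were changed 2-fold and 90% of 100 changed 4-fold. The dispersion fitted to the data was lower (0.00136), and no change under 2-fold was simulated.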

How the data were processed

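Per the labels' protocols, libraries were made with a kit that keeps strand. Per the submitters' processing notes, STAR 2.4.0f1 and the build mm10 (GRCm38) were used. How reads were counted, filtered or assigned when they map to several places is not stated in these sources. Per the file headers, the values are deposited counts of reads across each junction, with no normalisation, in a table of 8 libraries (638144 rows) and another of 4 (449433 rows). Headers have 3 more names than rows have cells, so columns were read by number. Column names show a group; those of the control, P49 and second DRB groups were found by elimination (the second DRB columns are named ctl), and library numbers follow column order only. A further 72 per-library columns were not used.

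Rows with the same strand and position were counted once. Inclusion was tested with edgeR 4.0.16 (R 4.3.3; quasi-likelihood, 1 term per library, inclusion-by-group term, two-sided), with the rounded mean of the inclusion junctions and the skip count as a library's 2 columns. All 8 libraries of the first table shared 1 fit, and the 4 of the second another. Events needed 20 or more reads in each group compared, and the Benjamini-Hochberg adjustment covered all tested events of 3 to 1000 nt. Alternatives used DESeq2 1.42.0, limma 3.58.1 and other filters, junction counts and libraries. Named exons are, per comparison, the 12 largest called rises and falls with 40 or more reads on average (1 exon per gene). Added to them are up to 4 called per gene list, and the exons found in textbook genes. The members and lists were chosen with earlier results of these data known. Frames were read from GENCODE M21 transcripts; intron sequence, splice site bases and intronic motifs were not used here. A standard error (SE) is the log2 odds ratio over the square root of F. The fit was tested on simulated data. In every group the 2 libraries differed beyond sampling noise (chi-square per degree of freedom 2.11 to 4.69), so none was counted as a duplicate. Column names of the first table carry numbers, but none that is tied to the replicate letters of the labels or shared across the groups as a replicate number, so no pairing was used there. The names of both P10 columns share their first number and differ in the last, and the labels do not say whether they are separate animals.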

Additional observations from a re-analysis of the deposited data

How the results depend on the processing

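The count of 296 exons called between P49 and P10 was 145 with DESeq2's own size factors, 163 with DESeq2 scaled by library totals, 182 with only annotated exons and 168 (of 493 tested) with events that had 100 reads per junction in the other 4 libraries. The count of 355 with DRB was 171 with DESeq2's own size factors, 211 with annotated exons and 192 (of 521) with events chosen on the other 4 libraries. The count of 400 for control cultures against P10 was 237 with annotated exons. With a fit of only the 2 groups compared, these counts were 227, 411 and 398. Fewer exons are tested with annotated exons and with events chosen on other libraries. The scaling by library totals and the choice on the other 4 libraries were added after the data were seen. Leaving out 1 library at a time gave 205 to 245, 240 to 260 and 328 to 368 calls, where a lone library was assumed to vary like the other groups. For bicuculline, the count of 3 was 0 with DESeq2 (both scalings), limma and the lower inclusion junction, 1 with annotated exons and 1 with balanced inclusion junctions, and 0 to 4 without 1 library. With a replicate block on the letters a and b in the column names of the second table it was 3; the letters match no replicate label, and no paired analysis was possible for the first table because the numbers in its column names match no replicate label.

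Of 142 called values of named exons, 102 kept their call under all alternatives run, 19 lost it in 1 and 21 in 2 or more; 20 lost it without 1 library. Of 2067 recomputed values, 15 turned direction, 1 of them a called value. With DESeq2's own size factors the log2 odds ratio with DRB was -0.13 for Agap1 (0.51 and called with edgeR on all libraries), -0.28 for Ank3, -0.05 for Nova1 and -0.33 for Ank2, and between control cultures and P10 it was 0.20 for Mapt and 0.27 for Nova1. With 1 control library left out, Mapt there was at -0.30 or 0.03 and Nova1 at -0.23 or 0.09. For bicuculline, leaving out 1 library gave -0.43 to 0.46 for Nova1, -0.16 to 0.25 for Mapt, -0.20 to 0.14 for Ank2, -0.11 to 0.28 for Mbnl1 and -0.61 to 0.01 for Nrxn3. Apart from the size factors, the cause was not tested. Depth limits the rarest exons: the least covered junction is an inclusion junction in 867 of 1016.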

Other observations

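A few cassette exons differed between libraries of the same group by far more than the median of 1.41 to 1.6 points. A 229 nt exon of C630016N16Rik (chr7:30730338-30730566) was at 7.26% and 84.7% in the P49 libraries, with 317 and 261 reads, and at 94.1% and 35.4% in the P10 libraries, with 236 and 339 reads. A 48 nt exon of Sfr1, a DNA repair gene, was at 90.9% and 17.2% in P49, and a 79 nt exon of F730043M19Rik at 2.34% and 59.8%. In P10, a 114 nt exon of Abi3bp was at 45.9% and 89.2%. Differences of more than 20 points between the libraries of a group were found for 10 exons in P49 and 8 in P10, against 2 in DRB cultures of the first experiment, 2 in control cultures, 1 in DRB-bicuculline cultures and 2 in DRB cultures of the second. The labels do not say whether the libraries came from different animals.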
